A study of Mus musculus with 2 samples.

Results

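The nuclear respiratory chain genes of mouse T-helper 2 (Th2) cells were taken by symbol. They are the protein-coding genes on nuclear chromosomes whose symbol starts with Nduf, Uqcr or Atp5, or with Cox followed by a number from 4 to 8, and Sdha, Sdhb, Sdhc and Sdhd. The rule took 94 gene models with 93 symbols, of 21851 nuclear protein-coding genes in the GENCODE M21 annotation. No measured value entered the rule. By the symbol they fall into 38 genes named for complex I, 8 complex I assembly factors, 4 genes of complex II, 8 of complex III, 18 of complex IV and 18 of complex V. Ndufa4 is filed here with complex I by its symbol, although its protein is known as a part of complex IV.

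Primary Th2 cells of strain C57BL/6NJ were profiled by ATAC-seq, an assay in which open DNA is cut and tagged by a transposase. There was 1 group of 2 biological replicates, from separate biosamples that share a donor record. No treatment, genotype change or second cell type was included. The labels point to a protocol for differentiating CD4+ T cells, and leave sex and age unstated. Separate animals are not stated, and what varies between the replicates may therefore be technical in part or whole.

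The lists held 51557 open regions in replicate 1 and 60891 in replicate 2, with a median count at the summit of 31 and 37, which limits the precision of each value. These counts were recovered from the deposited fold and p-value. The region names carry the words ASTARR and insert, which the sources used here do not explain, so that whether folds were measured on chromatin fragments directly is not known. All 6 Th2 and T cell markers (Gata3, Il4, Il13, Il5, Cd3e and Cd4) had a promoter region in both replicates. Their folds ran from 2.60 to 8.20 in replicate 1 and from 2.76 to 9.13 in replicate 2. All lay below the medians over all genes with a promoter region, 9.65 and 10.9. None of the 2 CD8 T cell, 3 B cell, 2 myeloid, 3 muscle and heart, 1 brown fat and 2 testis markers had a promoter region.

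The respiratory chain sits in the inner mitochondrial membrane. Complex I (NADH dehydrogenase) and complex II (succinate dehydrogenase) pass electrons to ubiquinone, complex III passes them to cytochrome c, and complex IV (cytochrome c oxidase) passes them to oxygen. Complexes I, III and IV pump protons, and complex V (ATP synthase) makes ATP as the protons flow back. Most subunits are encoded in the nucleus, and several subunits of complex IV exist as isoforms: a common one, and one made mainly in muscle and heart, testis or lung.

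Most closed genes were isoforms of an open gene, so the DNA just before the start site is shown first for one isoform family, that of subunit 8 of complex IV. The sequences are from the reference genome GRCm38.p6 (mm10), read 5′ to 3′ on the strand of the gene, with each CpG in capitals. The common isoform Cox8a (chr19:7217617-7217736, minus strand) holds 9 CpG in the 120 bases before its start. Cox8b, the muscle, heart and brown fat isoform (chr7:140900447-140900566, minus strand), holds 1, and the testis isoform Cox8c (chr12:102899196-102899315, plus strand) holds 7. Only Cox8a of these 3 genes had a region called at its start.
Cox8a: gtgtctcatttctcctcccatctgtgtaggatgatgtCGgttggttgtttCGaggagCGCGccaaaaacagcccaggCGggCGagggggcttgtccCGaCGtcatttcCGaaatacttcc
Cox8b: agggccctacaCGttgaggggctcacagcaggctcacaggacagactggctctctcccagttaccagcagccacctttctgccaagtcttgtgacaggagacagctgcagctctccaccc
Cox8c: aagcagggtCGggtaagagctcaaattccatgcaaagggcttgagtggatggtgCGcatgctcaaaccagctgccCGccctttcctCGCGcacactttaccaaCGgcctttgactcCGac

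A gene was counted as open when a region of each replicate reached within 1 kb of one of its start sites and these regions overlapped by at least 1 bp. Of the 94 gene models 87 (92.6%) were open, where 58.2% of all nuclear protein-coding genes and 58.0% of those outside the rule were. The other 7 had no promoter region in either replicate, and none had one in 1 replicate only. In replicate 1 alone the background share was 59.6% and in replicate 2 alone 60.4%, against the same 87 members. The share was 37 of 38 for complex I, 8 of 8 for its assembly factors, 4 of 4 for complex II, 8 of 8 for complex III and 17 of 18 for complex V. Complex IV had the lowest share, with 13 of 18 genes (72.2%) open. Of the 7 without a region, 6 are isoforms of restricted expression and the seventh is a second gene model of Atp5o. "Closed" is used below only for a gene at which no region was called.

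Fold enrichment is the authors' value for each region, read here as the count at the summit over local background. The highest promoter region of a gene stands for it. Over the 87 open genes the fold ran from 3.43 to 16.7 in replicate 1 and from 3.48 to 18.3 in replicate 2. Their medians were 11.0 and 12.9, beside 9.65 and 10.9 over all 12711 open genes. In replicate 1, 57 of the 87 lay above the median of all open genes, and in replicate 2, 62 did. The count at the summit differed less, with medians of 91 and 130 beside 83 and 118, and with 47 and 55 of the 87 above the median of all open genes.

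**Figure D1:**
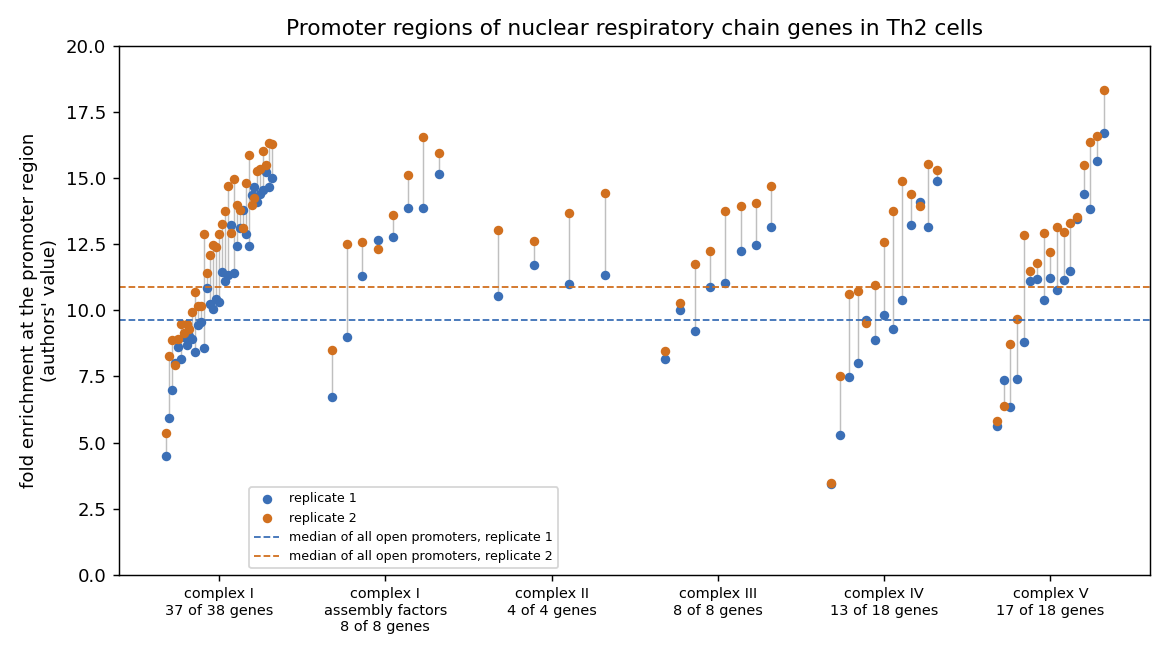
Fold enrichment of the promoter region (linear axis, the authors' value) for the 87 open respiratory chain genes, grouped by complex and ordered by the mean of both replicates. Points are single replicates joined by a line for each gene, and dashed lines are the medians of all open promoters (9.65 and 10.9). Every group except complex II holds genes on both sides of the dashed lines, and Cox7b of complex IV is the lowest gene.

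The replicates placed the genes in a similar order. Spearman's rho between their folds was 0.894 over the 87 genes, which share libraries and are not independent, and 0.938 over the 12624 other open genes. Replicate 2 had the higher fold in 78 of 87 genes, beside 10299 of all 12711 open genes. The fold of replicate 2 over that of replicate 1 had a median of 1.12, beside 1.11 over all open genes. This ratio ran from 0.867 for Atp5l to 1.504 for Ndufc1, so small differences between genes lie within the spread between replicates.

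Complex I had median folds of 10.9 and 12.9. Its core subunit Ndufs8, which carries iron-sulfur clusters, had folds of 14.99 and 16.3 at summit counts of 240 and 314. The accessory subunit Ndufb5 had 14.7 and 16.3, and Ndufa4 had 15.2 and 15.5. These were the 3 highest of the group by their mean over both replicates.

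The 3 lowest genes of complex I code for accessory subunits. Ndufb10 had folds of 4.51 and 5.35, Ndufa9 had 5.92 and 8.28, and Ndufa1, which lies on the X chromosome, had 6.97 and 8.86. Low folds came with different counts. At Ndufb10 the summit counts were 70 and 97 on a local background of 14.8 and 17.3, where the median background of all open promoters was 7.57 and 9.61. At Ndufa9 the counts themselves were low, at 25 and 44, on a background of 3.39 and 4.43. A low fold at Ndufb10 was thus a count in the middle range on a high background.

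The assembly factors of complex I, which help build the complex and are not part of it, had median folds of 12.7 and 13.1. Ndufaf8, which works with Ndufaf5, had folds of 15.2 and 16.0. Ndufaf7, a methyltransferase, had 13.9 and 16.6, and Ndufaf6 had 13.9 and 15.1. The lowest was Ndufaf3 with 6.72 and 8.50, followed by Ndufaf1 with 9.00 and 12.5 and Ndufaf4 with 11.3 and 12.6. Ndufaf3 is another case of a high background, with summit counts of 139 and 224 on a background of 19.8 and 25.5. Its counts ranked at the 80.3 and 87.1 percentile of open promoters and its folds at the 23.5 and 30.1 percentile.

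All 4 genes of complex II were open and lay close together. Sdha, the flavoprotein that oxidises succinate, had folds of 10.5 and 13.0. Sdhb, the iron-sulfur subunit, had 11.7 and 12.6. The membrane anchors Sdhc and Sdhd had 11.3 and 14.4, and 11.0 and 13.7. The order of the 4 genes was not the same in both replicates: Sdhb was the highest in replicate 1 and the lowest in replicate 2.

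Complex III had median folds of 11.0 and 13.0. The core protein Uqcrc1 was the highest, with 13.2 and 14.7, ahead of the small subunits Uqcrq (12.5 and 14.1) and Uqcr10 (12.2 and 13.9). Uqcr11 was the lowest, with 8.15 and 8.45, followed by the hinge protein Uqcrh (10.03 and 10.3) and the Rieske iron-sulfur protein Uqcrfs1 (9.23 and 11.8).

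Among the 13 open genes of complex IV, which had median folds of 9.65 and 12.6, Cox8a was the highest with 14.9 and 15.3. Cox7c followed with 13.2 and 15.5, and Cox7a2l with 14.1 and 14.0. Cox7a2l is a relative of Cox7a2 that takes part in joining complexes III and IV. The lowest of all 87 genes was Cox7b, a small subunit whose gene lies on the X chromosome, with folds of 3.43 and 3.48 at summit counts of 24 and 36. Its promoter region ranked at the 2.68 and 2.40 percentile of open promoters. A separate region further upstream of the Cox7b start, from -4348 to -3612 in replicate 1 and from -4346 to -3399 in replicate 2, was higher in both, with folds of 9.25 and 11.9. Whether that region holds the start of another gene was not examined, and it is not assigned to Cox7b. Cox6c, another small subunit, had folds of 5.27 and 7.52 at counts of 20 and 40. Cox6c and Cox7b were the genes lost when only regions with −log10 q of at least 10 were kept.

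Complex V had median folds of 11.1 and 12.9. The highest gene of all 87 was Atp5g1, 1 of 3 genes that code for the same ring subunit c, with folds of 16.7 and 18.3 and summit counts of 247 and 362. It ranked at the 99.1 percentile of open promoters in replicate 1. Atp5b, the catalytic beta subunit, followed with 15.6 and 16.6. The other 2 genes for subunit c were lower: Atp5g2 had 13.8 and 16.4, and Atp5g3 had 8.80 and 12.9. The folds of Atp5g1 were above those of Atp5g3 in both replicates without overlap.

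The 3 lowest genes of complex V were Atp5d, Atp5l and Atp5j2. Atp5d, the delta subunit, had folds of 5.61 and 5.81 at counts of 108 and 150, on a background of 18.4 and 24.98. Atp5l, subunit g, had 7.35 and 6.37 at a count of 44 in each replicate. Atp5j2, subunit f, had 6.34 and 8.73.

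Textbook knowledge places 11 of the genes named here as common isoforms and 8 as isoforms of restricted expression, and Cox7a2l was counted with the common ones. All 11 common isoforms were open and 2 of the 8 restricted ones were, beside 58.2% of all genes. The second gene of the pair Atp5l and Atp5l2 is a pseudogene in this annotation, so that pair was not compared.

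For subunit 4, Cox4i1 was open with folds of 8.01 and 10.7, and Cox4i2, the lung isoform, was closed. The region nearest to Cox4i2 lay 11.02 kb away, downstream. For subunit 6a, Cox6a1 was open with folds of 9.28 and 13.7. The muscle and heart isoform Cox6a2 had no region nearer than 1796 bp, and that region, upstream, had folds of 4.62 and 5.20. For subunit 8, Cox8b had its nearest region 2743 bp upstream (3.95 and 5.06) and Cox8c 20.51 kb upstream.

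For subunit 7b, the testis isoform Cox7b2 had no shared region within 379.3 kb of its start. Its common partner Cox7b was the lowest open gene. For Ndufa4, with folds of 15.2 and 15.5, the partner is Ndufa4l2, which is known to be induced under low oxygen. The nearest region to Ndufa4l2 ended 1285 bp upstream and had folds of 5.52 and 7.90. Ndufa4l2 was the gene just outside the 1 kb limit. Of the open genes, Atp5f1 had its region farthest from an annotated start of its gene, 232 bp away.

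Cox7a1 and Cox6b2 were the restricted isoforms that were open. Cox7a1, the muscle, heart and brown fat isoform of subunit 7a, had folds of 9.82 and 12.6 at summit counts of 63 and 118. The summits lay upstream of its start, at positions -47 and -57. Its common partner Cox7a2 had 13.2 and 14.4, and the folds of the isoforms did not overlap between genes. Cox6b2, the testis isoform of subunit 6b, had folds of 7.47 and 10.6 at counts of 48 and 93. Its common partner Cox6b1 had 8.87 and 10.9. Cox6b1 was thus the higher within each replicate, although the ranges of the partners over both replicates overlapped. Neither region held the start of another protein-coding gene. The muscle and heart, brown fat and testis markers named above had no promoter region. The part that other cells in the samples may have in these values was not tested further.

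**Figure D2:**
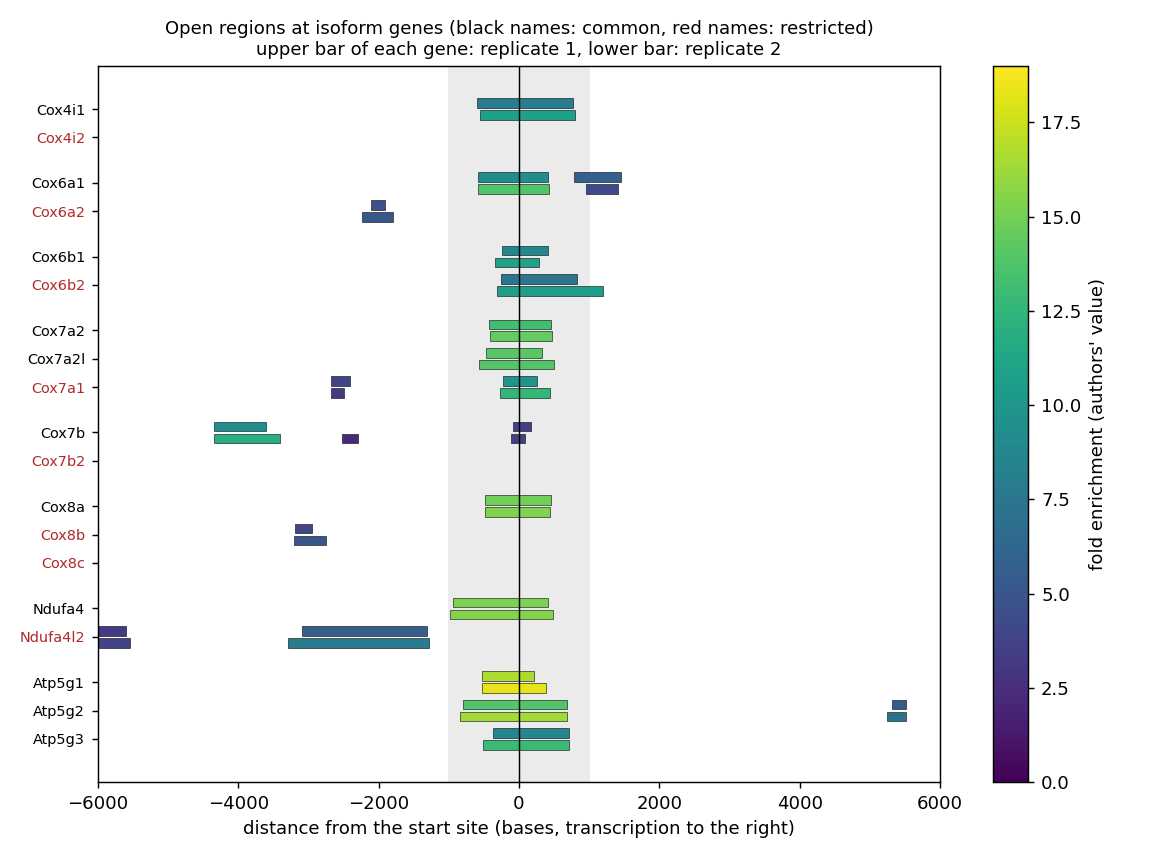
Open regions from 6 kb upstream to 6 kb downstream of the start of each isoform gene, coloured by the authors' fold enrichment, with replicate 1 above and replicate 2 below; the grey band marks 1 kb on each side. All 11 common isoforms (black names) and, of the restricted ones (red names), Cox6b2 and Cox7a1 have a region across the start, while Cox4i2, Cox7b2 and Cox8c have none in the span drawn.

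The bases before the start are shown for 4 further families, with CpG in capitals. They hold a pair with the restricted isoform closed (subunit 6a), the pairs with both isoforms open (7a and 6b) and, on its own, the closed isoform of subunit 4. For subunit 7a these are Cox7a2 (chr9:79759879-79759998, minus strand, 9 CpG) and Cox7a1 (chr7:30184024-30184143, plus strand, 3 CpG), 120 bases each. For subunit 6a they are Cox6a1 (chr5:115348982-115349041, minus strand, 8 CpG) and Cox6a2 (chr7:128206388-128206447, minus strand, 1 CpG). For subunit 6b they are Cox6b1 (chr7:30626152-30626211, minus strand, 4 CpG) and Cox6b2 (chr7:4753095-4753154, minus strand, 2 CpG), where 60 bases each are shown to stay clear of annotated exons. Cox4i2 (chr2:152754053-152754172, plus strand) is shown as the closed gene with the most CpG, 11 in 120 bases.
Cox7a2: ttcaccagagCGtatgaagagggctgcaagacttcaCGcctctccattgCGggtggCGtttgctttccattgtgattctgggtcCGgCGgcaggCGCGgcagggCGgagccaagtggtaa
Cox7a1: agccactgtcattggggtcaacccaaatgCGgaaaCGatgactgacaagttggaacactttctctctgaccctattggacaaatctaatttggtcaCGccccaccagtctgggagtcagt
Cox6a1: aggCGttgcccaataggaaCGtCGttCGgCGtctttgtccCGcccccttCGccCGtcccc
Cox6a2: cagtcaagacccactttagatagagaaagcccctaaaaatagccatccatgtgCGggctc
Cox6b1: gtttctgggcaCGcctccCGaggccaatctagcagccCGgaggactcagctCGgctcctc
Cox6b2: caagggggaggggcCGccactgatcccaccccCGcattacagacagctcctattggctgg
Cox4i2: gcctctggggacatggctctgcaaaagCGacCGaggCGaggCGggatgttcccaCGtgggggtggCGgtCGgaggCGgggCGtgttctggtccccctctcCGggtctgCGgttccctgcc

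Over the start window of 300 bases, from 250 before to 50 after the start of the principal transcript, the common isoforms had a median of 18 CpG and the restricted isoforms 8. The open respiratory chain genes had a median of 18 and the 7 closed ones 5, beside 21 in the other open genes and 3 in the other closed genes. Median GC content was 56.3% in the open members and 61% in the other open genes. CpG content did not sort every gene. Cox7b was open with 5 CpG in its window, and Cox7a1 and Cox7c with 6. Ndufa5 was open with 4, but its window only partly overlapped its regions and held the summit of neither replicate. Cox4i2 was closed with 16. Atp5j2, with 1 CpG, and Atp5f1, with 4, had windows that lay outside their regions in both replicates, as did Ndufs4, with 5, and Cox6c, with 9, in replicate 1, so for these the CpG count is not that of the open DNA. Among the 87 open genes the fold hardly moved with the CpG count, with Spearman's rho of 0.070 in replicate 1 and 0.048 in replicate 2.

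**Figure D3:**
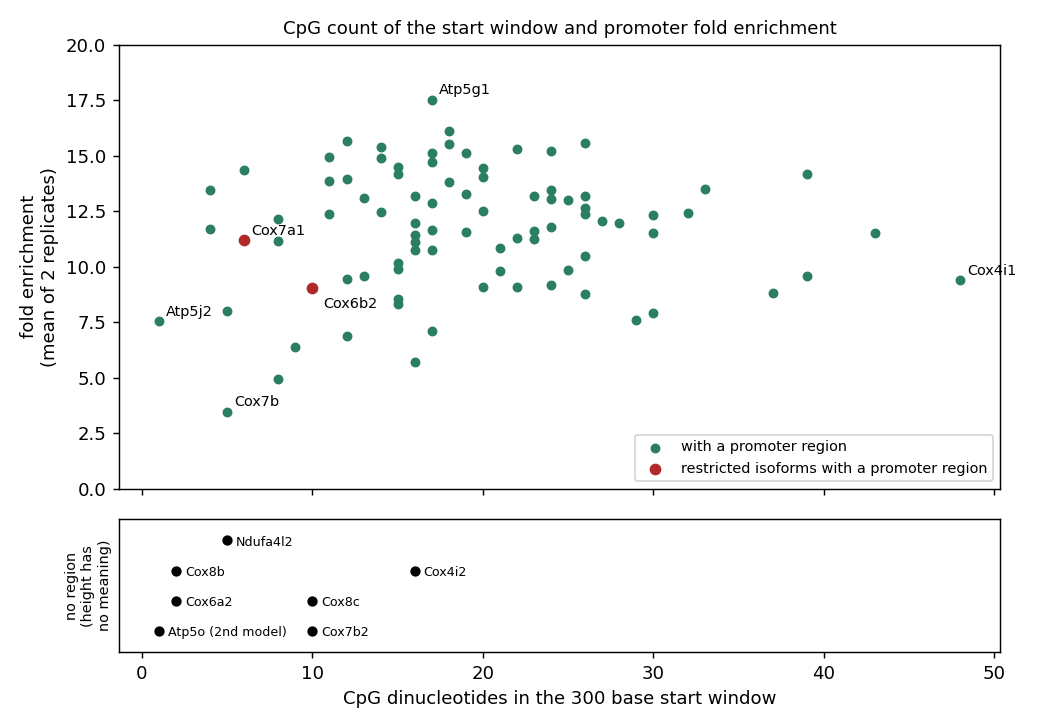
CpG dinucleotides in the start window of each respiratory chain gene (horizontal axis) against the mean fold enrichment of its promoter region over both replicates (upper panel, 87 genes); the lower panel shows the 7 closed gene models at their CpG count, with the second Atp5o model marked as 2nd. Open genes spread from 1 CpG (Atp5j2, whose window lies outside its region) to 48 (Cox4i1), and of the closed ones Cox4i2 has the most, 16.

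The seventh closed model, the second Atp5o, spans 242.6 kb of chromosome 16 (chr16:91684398-91926982), and its annotated start lies inside the first Atp5o gene. The first Atp5o model, subunit OSCP of complex V, was open with folds of 7.39 and 9.68. The region nearest to the start of the second model, 4078 bp upstream, is the promoter region of the first. Counted by symbol, Atp5o is open, which gives 87 of 93 genes.

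Promoter regions of these genes lay close to the annotated start. The median distance from the summit to the nearest start site of the gene was 46 and 44 bases, beside 83 and 80 over all open genes. The region covered a start site of its gene in 85 of 87 genes in replicate 1 (97.7%) and in 86 in replicate 2 (98.9%), beside 92.1% and 92.8% of all open genes. The exceptions were Atp5f1 in both replicates and Ndufs4 in replicate 1. At Atp5j2 in both replicates and at Cox6c in replicate 1 the start covered was not that of the principal transcript. Median width was 1001 and 1073 bp, beside 1091 and 1119 bp over all open genes.

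In 30 of the 87 open genes (34.5%) the same region also held the start of another protein-coding gene, beside 18.1% of all open genes. Some of the partners have a mitochondrial role. Ndufb5 shared its region with Mrpl47 and Ndufs6 with Mrpl36, which code for mitochondrial ribosomal proteins. Sdhd shared its region with Timm8b, which codes for an import chaperone. These examples were picked by that role. How many partners have such a role was not counted, here or over all open genes. Atp5j shared its region with Gabpa, which codes for a subunit of an ETS factor known to act on respiratory chain promoters. Other pairs include Sdha with Ccdc127, Cox4i1 with Emc8, Ndufa1 with Rnf113a1 and Uqcr10 with Zmat5. At a region with 2 starts, accessibility cannot be assigned to 1 of the genes. By complex the share was 13 of 37 for complex I, 4 of 8 for its assembly factors, 3 of 4 for complex II, 3 of 8 for complex III, 1 of 13 for complex IV and 6 of 17 for complex V.

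Regions inside the genes, away from the promoter, were few. Of the 94 gene models 12 (12.8%) held any shared region more than 1 kb from their start sites, beside 32.9% of all nuclear protein-coding genes. The respiratory chain genes are also shorter, with a median length of 7419 bp against 17380 bp, and the part of length in this difference was not tested. Among the open members 11 genes held 20 such regions, of which 3 lay at the start of another gene. Of the remaining 17, 15 were centred in introns. Ndufaf2, an assembly factor in a long gene, held the highest of these in replicate 1, an intronic region 101.4 kb from its start (chr13:108056880-108057547) with folds of 10.3 and 8.65. Ndufs4, an iron-sulfur fragment subunit, held one 78.0 kb from its start (chr13:114309759-114310688) with folds of 7.61 and 10.3. Atp5c1, the gamma subunit that turns inside the catalytic head, held one 6.59 kb from its start (chr2:10073433-10074407) with folds of 6.86 and 11.1.

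Factors known to act on respiratory chain promoters include NRF1, the ETS factor GABP and the estrogen-related receptors (ERR). Sequence matches to 9 consensus motifs were counted on both strands of the start windows. Promoters that carry them are shown here, 60 bases each on the strand of the gene, with the match in capitals. The NRF1 motif is GCGCA, any base and GCGC in a row, and its matches are shown in Ndufb4 (chr16:37654514-37654573, minus strand), Ndufs5 (chr4:123718243-123718302, minus strand), Ndufaf4 (chr4:24897963-24898022, plus strand), Atp5mpl (chr12:111967028-111967087, minus strand), Atp5h (chr11:115420023-115420082, minus strand) and Cox6a1 (chr5:115349062-115349121, minus strand), which holds a pair of them. The ZNF143 motif ACTACAA is shown in Uqcr10 (chr11:4704363-4704422, minus strand) and Ndufa3 (chr7:3617273-3617332, plus strand). The ERR motif CAAGGTCA is shown in Atp5g3 (chr2:73911347-73911406, minus strand), where it reads on the opposite strand, and the ETS motif CCGGAAG in Uqcr11 (chr10:80406851-80406910, minus strand). The examples were picked after the matches were known, among those clear of annotated exons.
Ndufb4: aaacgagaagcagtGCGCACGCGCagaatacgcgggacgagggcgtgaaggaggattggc
Ndufs5: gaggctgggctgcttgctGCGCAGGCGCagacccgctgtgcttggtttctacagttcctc
Ndufaf4: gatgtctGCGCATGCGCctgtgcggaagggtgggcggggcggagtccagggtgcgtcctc
Atp5mpl: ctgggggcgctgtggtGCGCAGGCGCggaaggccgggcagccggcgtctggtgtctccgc
Atp5h: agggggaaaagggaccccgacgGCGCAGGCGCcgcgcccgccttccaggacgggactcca
Cox6a1: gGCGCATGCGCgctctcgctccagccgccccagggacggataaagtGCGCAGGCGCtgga
Uqcr10: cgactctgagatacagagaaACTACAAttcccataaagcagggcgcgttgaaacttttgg
Ndufa3: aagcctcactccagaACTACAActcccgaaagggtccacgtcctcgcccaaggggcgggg
Atp5g3: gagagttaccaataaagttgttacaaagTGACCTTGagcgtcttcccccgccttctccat
Uqcr11: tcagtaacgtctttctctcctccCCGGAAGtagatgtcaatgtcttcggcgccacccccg

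The NRF1 motif was found in 15 of 87 open members (17.2%), beside 9.85% of the other open genes and 6.07% of all other genes. Sdha held 3 matches, and Ndufb4 and Cox6a1 held 2 each. The ETS motif was found in 17 members (19.5%), beside 17.4% and 11.1%. Together 29 members (33.3%) held an NRF1 or an ETS match, beside 25.3% of the other open genes and 16.1% of all other genes. Both were held by 3 members (3.45%), beside 1.97% and 1.16%, and these were Sdhd, Cox6a1 and Atp5h. No NRF1 or ETS match was found in the windows of the 7 closed members or of the 8 restricted isoforms, including Cox7a1 and Cox6b2. Among the other closed genes 0.843% held an NRF1 match and 2.53% an ETS match.

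The other motifs were found in fewer members, except for NFY and SP. The ZNF143 motif was found in 8 members (9.20%), beside 4.13% of the other open genes and 3.76% of all other genes. In windows of 200 bp at the summits it was found in 4 members (4.60%) in each replicate, beside 3.02% and 3.43% of the other open genes. The ERR motif was found in 4 members (4.60%), beside 1.04% and 1.33%, and these were Ndufs5, Sdhd, Atp5g3 and Atp5l. The YY1 motif AANATGGCG was found in 7 (8.05%), beside 4.98% and 3.13%. Of these 7, 5 were complex I genes, which make up 37 of the 87 open members. In the summit windows 6 of the 11 members with a YY1 match were complex I genes in each replicate. The cyclic AMP response element TGACGTCA was found in 4 (4.60%), beside 3.44% and 2.48%. The E-box CACGTG was found in 7 (8.05%), beside 9.93% and 7.71%, and the NFY motif CCAAT in 33 (37.9%), beside 37.8% and 38.6%.

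The SP motif GGGCGG went the other way, with 36 of 87 open members (41.4%) beside 64.9% of the other open genes and 45.4% of all other genes. The median GC content given above was also lower in the members. No matches of different motifs overlapped in the members. A match is a run of letters and not a bound site, and with 4 to 8 members behind several shares a few genes set each of them. Members with and without an NRF1 match had similar median folds, at 11.0 and 11.1 in replicate 1 and 13.0 and 12.8 in replicate 2.

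**Figure D4:**
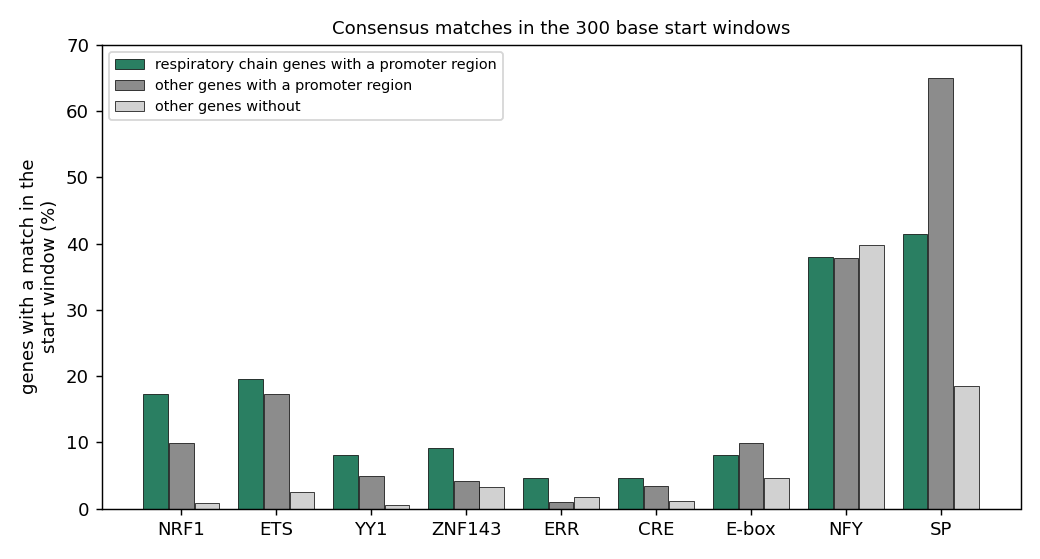
Share of genes (percent, linear axis from 0) with a match to each of 9 motifs in the start window of 300 bases, for the 87 open respiratory chain genes, the 12624 other open genes and the 9133 other genes without a promoter region. The NRF1 bar of the respiratory chain genes stands at 17.2% beside 9.85% of the other open genes, and the SP bar at 41.4% beside 64.9%.

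Genes of the pathway outside the rule were taken from lists of assembly factors and related genes, electron carriers and regulators. All 7 further complex I assembly factors and all 35 genes listed for complexes II to V were open, beside 58.2% of all genes. Of the former, Timmdc1 (15.5 and 15.3), Foxred1 (14.97 and 15.5) and Ecsit (14.2 and 15.4) were the highest. Of the latter, Coa4 (17.0 and 17.9), the mitochondrial RNA-binding protein Lrpprc (14.0 and 17.1) and Cox18 (15.4 and 15.5), which inserts a complex IV subunit into the membrane, were the highest.

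As in most isoform families of complex IV, but not those of Cox7a1 and Cox6b2, the restricted isoform of the electron carrier was closed. Cycs, the somatic cytochrome c, had folds of 15.8 and 18.8, and the testis cytochrome c gene Cyct had no promoter region. Cyc1, cytochrome c1 of complex III, was open with 9.84 and 10.4. Of 17 regulators and genes of mitochondrial DNA expression 16 were open, beside 58.2% of all genes. Tfb1m (16.1 and 16.5), the mitochondrial RNA polymerase Polrmt (12.6 and 15.2) and the mitochondrial DNA-packaging factor Tfam (13.4 and 13.4) were the highest. The exception was Ppargc1a, a coactivator that raises mitochondrial gene expression, which had a promoter region in replicate 1 only.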

How the data were processed

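Peaks were deposited by the authors as 1 list per library on mm10, per the file headers, so each library was called on its own. Neither the aligner nor the peak caller is given in the sources used here. The authors' fold enrichment (a linear ratio), −log10 p and −log10 q are deposited with every region; the lowest −log10 q was 1.00 and 1.01. The deposited score was not used. Region names also hold a time of 96 hours that no source explains. Total depth is unknown. Counts at summits were recovered from fold and p by a Poisson model with a pseudocount of 1, and were whole within 0.001 of −log10 p for 51555 and 60886 regions. Local background is that count plus 1, over the fold, less 1. Counts cover counting error only.

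Start sites are those of protein-coding transcripts in GENCODE M21 basic, on 21 nuclear chromosomes, and 0 regions ran past a chromosome end. Promoters were within 1 kb of a start, and replicates had to overlap by 1 bp. Sequences come from the NCBI RefSeq copy of GRCm38.p6. Members, gene lists, motifs and alternatives were chosen with earlier results of these data known. Genes named are the closed members, the isoforms, the 3 highest and 3 lowest of each complex, partners at shared starts, and of other lists the closed genes and the 3 highest. Named outside this rule, after their values were seen, are the genes at low CpG counts, at motif matches, at regions inside genes, at the ends of the ratio between replicates and at changed settings, and Atp5f1, Ndufs4 and Cyc1. A few genes are not reported by name. No test was run: there was 1 group, and genes are not replicates. Alternatives were a stricter q, other promoter widths, overlap of 50%, region centres, gene 5′ ends, each replicate alone, the nearest region and summit windows of 200 bp. Scripts were tested on simulated data. Python 3.11.15, pandas 2.3.3, scipy 1.17.1 and pysam 0.24.0 were used.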

Additional observations from a re-analysis of the deposited data

How the results depend on the processing

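Of the values recomputed under another setting, 116 stayed within 1.5 times the original count or within the spread between replicates, and 9 moved. The 116 include the median folds of each replicate alone. These lie within that spread by construction and say nothing about stability. With promoters widened to 2.5 kb, 4 of 8 restricted isoforms counted as open, adding Cox6a2 and Ndufa4l2, while the share of all genes was 60.6%. With −log10 q of at least 10, Cox6c and Cox7b were lost, and the share of all genes was 51.9%. Region centres lost Atp5f1, and gene 5′ ends lost 2 members, one of them Cox7a2l. Overlap of 50%, narrower promoters and either replicate alone changed no member. In windows of 200 bp at the summits of replicates 1 and 2, YY1 matches were found in 11 and 11 members (12.6% in each, beside 4.40% and 4.48% of the other open genes), ZNF143 in 4 and 4 (4.60%, beside 3.02% and 3.43%), and the E-box in 3 and 4 (3.45% and 4.60%, beside 7.43% and 7.71%). The cyclic AMP response element was found in 2 at the summits of replicate 1 (2.30%, beside 2.71%) and ERR in 2 at those of replicate 2 (2.30%, beside 0.317%). Counting 1 model for each symbol was chosen after seeing the data and changed only the total. No paired analysis was possible because there was 1 group. Low counts limit Cox6c and Cox7b most. Without total depth, a closed gene is one with no called region, not one shown to lack accessibility.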
